A study of Mus musculus with 9 samples.

Results

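The genes described here mark B lymphocytes and the plasma cells that arise from them: Cd79a, Cd79b, Ms4a1, Blk, Pax5, Cd22, Cr2, Pou2af1 and Mzb1. All probe sets that the array's annotation gives to 1 of these symbols alone were taken, which made 12 probe sets of 9 genes, out of 45037 probe sets and 18193 genes measured. Cd22, Ms4a1 and Pax5 had 2 probe sets each. RNA from the aorta of female APOE-/- mice on a C57BL/6 background was hybridised to 9 one-colour arrays, 3 for each of 3 treatments. The mice lack apolipoprotein E, which clears lipoprotein remnants from the blood, in every group, controls included. They were 8 weeks old at purchase and ate 0.2% cholesterol and 10% coconut oil for 30 weeks to bring on atherosclerosis. They then received 1 injection into the tail vein of saline (PBS), of an empty helper-dependent adenovirus (HDAd-0) or of the same kind of vector carrying human apolipoprotein E3 (HDAd-gE3), and were killed 10 days later. Each array holds a pool of 3 aortas cut from sinus to arch, so differences between mice within a pool are averaged out. The promoter that drives the transgene was not given in the sources used here. The arrays are named by the numbers in their labels, which are 1, 3 and 4 for PBS, 3, 4 and 5 for HDAd-0, and 2, 3 and 4 for HDAd-gE3.

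B cells sense antigen through a membrane immunoglobulin that signals by way of the Cd79a and Cd79b chains. Coreceptors raise or lower that signal, and a set of transcription factors keeps the cells in the B lineage until they turn into plasma cells, which secrete antibody. In atherosclerotic mice, B cells and plasma cells are known mainly from the outer coat of the artery and the lymphoid clusters and fat around it.

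Values are log2 signals, so a difference of 1 is a doubling. Array medians lay between 6.67 and 6.77, and the lowest correlation between any pair of arrays over all probe sets was 0.991. The smooth muscle gene Acta2 had a log2 signal of 13.88 to 13.98 on the 9 arrays, high in each, and aorta is the tissue in the labels. The 5 B cell markers measured were all members. A mean signal of 4.44 is the 25th percentile of all probe sets. The Pax5 probe set 1454401_at, with a mean of 4.32, lay below it, and the means of Pax5 1421765_at and Cr2 lay just above it at 4.63 and 4.60. Detection calls were not used here, so whether these dim probe sets lie above background is unknown. In RNA from whole tissue, fewer B cells and less RNA in each cell cannot be told apart.

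No member passed the test in any comparison, where the test was limma's moderated test over all probe sets at an adjusted p under 0.05. Comparing HDAd-gE3 with HDAd-0, 0 of 12 member probe sets and 0.0% of all probe sets passed, 1 of 12 had an unadjusted p under 0.05 against 12.8% of all, and 1 of 12 had groups that did not overlap against 15.9% of all. In HDAd-0 against PBS, 0 of 12 passed against 0.00888% of all, 2 of 12 had an unadjusted p under 0.05 against 12.3%, and 2 of 12 did not overlap against 16.9%. In HDAd-gE3 against PBS, 0 of 12 passed against 0.00222%, 2 of 12 had an unadjusted p under 0.05 against 11.0%, and 3 of 12 did not overlap against 20.8%. The members' shares were thus near those of all probe sets. The 3 comparisons share their groups, so their values are not independent of one another.

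With 1 probe set for each gene (the brightest), 8 of the 9 member genes had a higher mean in HDAd-0 than in PBS and 7 of 9 had a higher mean in HDAd-gE3 than in PBS. The median difference was 0.29 in the first of these comparisons and 0.33 in the second, beside medians of 0.02 and -0.02 over all genes. The share of all genes with a higher mean was not counted. Some member genes ran together over the 9 arrays (Pearson r 0.82 to 0.91 among Cd79a, Cd79b and Ms4a1) and others did not (0.17 for Blk with Cd79a). The counts are thus not of independent genes. Between HDAd-gE3 and HDAd-0, 4 member genes were higher and 5 lower, with a median of -0.0037 beside -0.04 over all genes. That near-zero median turned with the arrays in it: leaving out replicate 2 of HDAd-gE3 gave 0.26 and leaving out its replicate 4 gave -0.27. Against PBS, the same leave-outs moved the HDAd-gE3 median to 0.55 and 0.17 respectively. The plot of differences with their intervals shows how wide these are for Ms4a1 and Pou2af1.

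**Figure D1:**
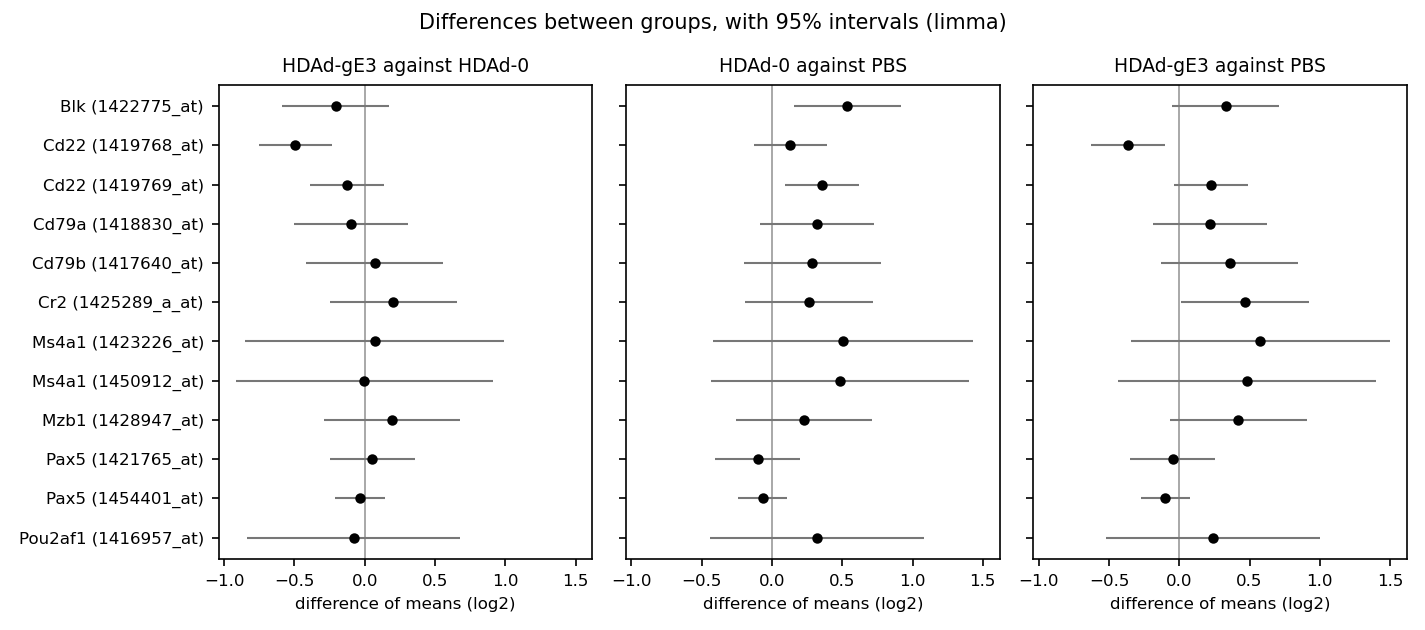
Difference of group means in log2 signal (horizontal axis) for the 12 member probe sets (rows) in the 3 comparisons (panels); points are differences and bars 95% intervals from limma's fit over all 9 arrays. Most intervals cross 0, and those of both Ms4a1 probe sets are the widest, reaching from -0.43 to 1.40 for 1450912_at in HDAd-0 against PBS.

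Cd79a encodes the alpha chain of the antigen receptor's signalling pair. Its log2 signal (1418830_at) was 6.74, 6.79 and 7.03 in PBS replicates 1, 3 and 4, 7.26, 6.88 and 7.36 in HDAd-0 replicates 3, 4 and 5, and 6.79, 7.01 and 7.41 in HDAd-gE3 replicates 2, 3 and 4. All 3 groups overlapped, and the high arrays were HDAd-gE3 replicate 4 and HDAd-0 replicates 5 and 3. The difference was 0.32 ± 0.18 (SE; 95% interval -0.09 to 0.72) for HDAd-0 against PBS, with a limma adjusted p of 0.505, and -0.10 ± 0.18 (adjusted p 0.838) for HDAd-gE3 against HDAd-0.

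Cd79b encodes the beta chain. Its log2 signal (1417640_at) was 7.93, 8.09 and 7.86 in PBS, 8.28, 7.85 and 8.61 in HDAd-0, and 7.93, 8.42 and 8.60 in HDAd-gE3, in the same order of replicates. One array of each vector group, HDAd-0 replicate 4 and HDAd-gE3 replicate 2, lay at the PBS level and the others above every PBS array. The difference was 0.29 ± 0.21 (95% interval -0.20 to 0.77) for HDAd-0 against PBS and 0.36 ± 0.21 (-0.13 to 0.85) for HDAd-gE3 against PBS, with limma adjusted p-values of 0.618 and 0.577. The HDAd-0 value was 0.48 without its replicate 4 and 0.11 without its replicate 5, and the HDAd-gE3 value was 0.55 without its replicate 2 and 0.22 without its replicate 4.

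Ms4a1 encodes CD20, a surface protein of mature B cells. On its brighter probe set (1450912_at) the log2 signal was 7.13, 7.29 and 7.17 in PBS, 8.23, 6.79 and 8.03 in HDAd-0, and 7.0, 7.74 and 8.29 in HDAd-gE3. The other probe set (1423226_at) had 6.40, 6.39 and 6.35 in PBS, 7.29, 6.04 and 7.32 in HDAd-0, and 6.22, 6.99 and 7.65 in HDAd-gE3. The PBS arrays lay close together, and the vector arrays fell on both sides of them: 4 above, and HDAd-0 replicate 4 and HDAd-gE3 replicate 2 below. Both probe sets gave this order, with a Pearson r of 0.987 between them over the 9 arrays. The array annotation gives both the same transcript, so they are 2 readings of 1 gene. For 1450912_at the difference was 0.48 ± 0.40 for either vector against PBS, with limma adjusted p-values of 0.660 for HDAd-0 and 0.701 for HDAd-gE3. The HDAd-0 value was 0.93 without its replicate 4, 0.21 without its replicate 3 and 0.31 without its replicate 5, and the HDAd-gE3 value was 0.82 without its replicate 2 and 0.17 without its replicate 4. Between the vector groups it was -0.0037 ± 0.40, and the 95% interval of -0.92 to 0.91 leaves room for a change of nearly 1 log2 unit either way.

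**Figure D2:**
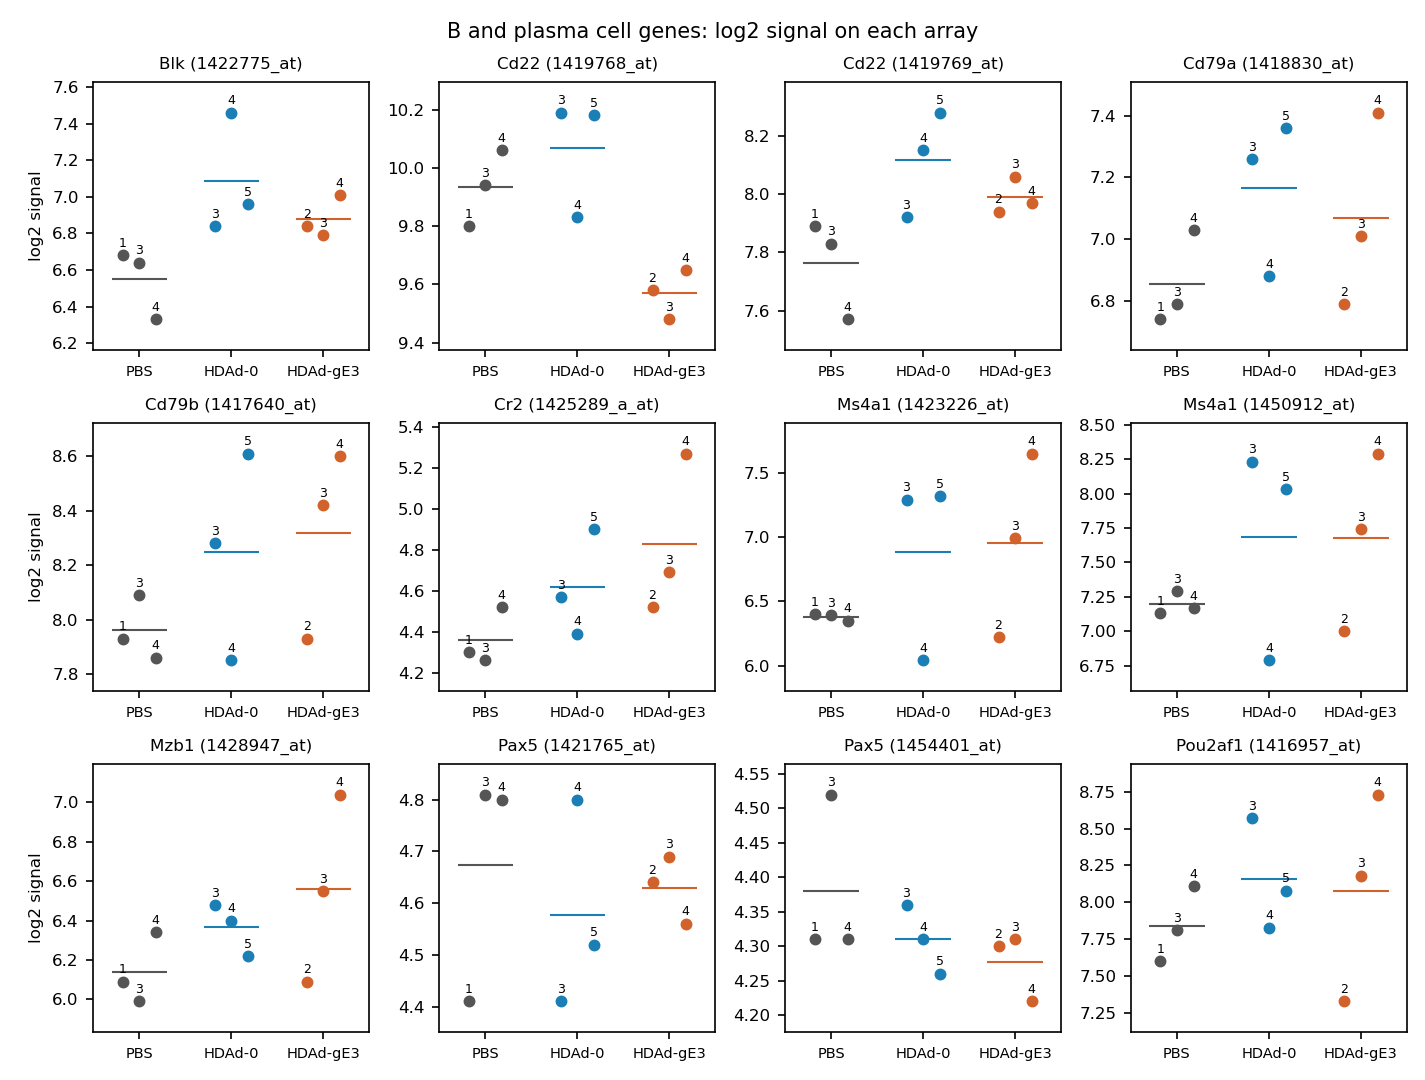
Log2 signal (vertical axis, scaled for each panel and not from 0) of the 12 member probe sets on each array, by treatment; numbers are the replicate numbers of the labels and lines are group means (n = 3). Ms4a1 and Cd79b were high on HDAd-0 replicates 3 and 5 and HDAd-gE3 replicates 3 and 4, and Cd22 1419768_at was lowest on the 3 HDAd-gE3 arrays.

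Cd22 encodes a sialic acid-binding coreceptor that damps antigen receptor signalling. On 1419768_at the log2 signal was 9.80, 9.94 and 10.06 in PBS, 10.19, 9.83 and 10.18 in HDAd-0, and 9.58, 9.48 and 9.65 in HDAd-gE3. All 3 HDAd-gE3 arrays lay below all 6 others. The difference was -0.49 ± 0.11 (95% interval -0.75 to -0.23) from HDAd-0, with an unadjusted p of 0.00217 and a limma adjusted p of 0.219, and -0.36 ± 0.11 from PBS, with an adjusted p of 0.323. Without HDAd-0 replicate 4 the difference from HDAd-0 was -0.61 with an adjusted p of 0.0405, in a fit in which 402 of 45037 probe sets (0.893%) passed.

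The other Cd22 probe set (1419769_at) did not share this pattern. Its log2 signal was 7.89, 7.83 and 7.57 in PBS, 7.92, 8.15 and 8.28 in HDAd-0, and 7.94, 8.06 and 7.97 in HDAd-gE3. Here the HDAd-gE3 arrays lay within the range of HDAd-0, and the PBS arrays were below all 6 vector arrays. The difference was 0.35 ± 0.11 for HDAd-0 against PBS (limma adjusted p 0.293) and -0.13 ± 0.11 for HDAd-gE3 against HDAd-0 (adjusted p 0.649). Over the 9 arrays the Pearson r between the pair was -0.09, so the lower Cd22 value in HDAd-gE3 rests on 1 of its 2 probe sets. With the mean of both, the difference between the vector groups was -0.31, with an adjusted p of 0.193.

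Cr2 encodes complement receptor 2, which lowers the threshold for B cell activation by antigen coated with complement. Its log2 signal (1425289_a_at) was 4.30, 4.26 and 4.52 in PBS, 4.57, 4.39 and 4.90 in HDAd-0, and 4.52, 4.69 and 5.27 in HDAd-gE3. HDAd-gE3 replicate 4 stood highest. The difference of HDAd-gE3 from PBS was 0.47 ± 0.20, with an unadjusted p of 0.0451 and a limma adjusted p of 0.443, and it was 0.25 without HDAd-gE3 replicate 4.

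Blk encodes a Src-family kinase downstream of the antigen receptor. Its log2 signal (1422775_at) was 6.68, 6.64 and 6.33 in PBS, 6.84, 7.46 and 6.96 in HDAd-0, and 6.84, 6.79 and 7.01 in HDAd-gE3. All 6 vector arrays lay above the PBS arrays, and HDAd-0 replicate 4, which was lowest for Ms4a1 and Cd79b, was highest for Blk. The difference was 0.54 ± 0.17 (95% interval 0.16 to 0.92) for HDAd-0 against PBS, with an unadjusted p of 0.0112 and a limma adjusted p of 0.279, and it was 0.35 without HDAd-0 replicate 4. For HDAd-gE3 against PBS it was 0.33 ± 0.17, with an adjusted p of 0.514, and 0.22 without PBS replicate 4.

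Pou2af1 encodes a coactivator that works with octamer-binding factors at immunoglobulin and other B cell genes. Its log2 signal (1416957_at) was 7.60, 7.81 and 8.11 in PBS, 8.57, 7.83 and 8.08 in HDAd-0, and 7.33, 8.18 and 8.73 in HDAd-gE3. The HDAd-gE3 arrays held both the lowest and the highest value of the series. Differences were 0.32 ± 0.33 for HDAd-0 against PBS and -0.08 ± 0.33 for HDAd-gE3 against HDAd-0, with limma adjusted p-values of 0.733 and 0.937. The HDAd-0 value against PBS was 0.48 when its replicate 4 was left out, 0.11 when its replicate 3 was, and 0.20 when PBS replicate 1 was.

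Mzb1 encodes an endoplasmic reticulum protein that helps assemble and secrete antibody in marginal zone B cells and plasma cells. Its log2 signal (1428947_at) was 6.09, 5.99 and 6.34 in PBS, 6.48, 6.40 and 6.22 in HDAd-0, and 6.09, 6.55 and 7.04 in HDAd-gE3. Again HDAd-gE3 replicate 4 was highest, while replicate 2 of that group lay among the PBS arrays. The difference of HDAd-gE3 from PBS was 0.42 ± 0.21 (95% interval -0.06 to 0.91), with a limma adjusted p of 0.515. Leaving out replicate 2 of HDAd-gE3 gave 0.66, and leaving out its replicate 4 gave 0.18.

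Pax5, the factor that commits cells to the B lineage, was dim on both probe sets. On 1421765_at the log2 signal was 4.41, 4.81 and 4.80 in PBS, 4.41, 4.80 and 4.52 in HDAd-0, and 4.64, 4.69 and 4.56 in HDAd-gE3. On 1454401_at it lay between 4.22 and 4.52. No array stood apart on both, the Pearson r between them was 0.36 over 9 arrays, and limma adjusted p-values lay between 0.679 and 0.928.

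The members varied more between arrays of a group than most probe sets did. Their median SD within groups was 0.27 log2 units, against 0.14 over all probe sets. Of the 12, 11 were above that median and 3 were above the 95th percentile of 0.37, namely both Ms4a1 probe sets (SD 0.59 each) and Pou2af1 (0.48). This is a description, with no test.

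**Figure D3:**
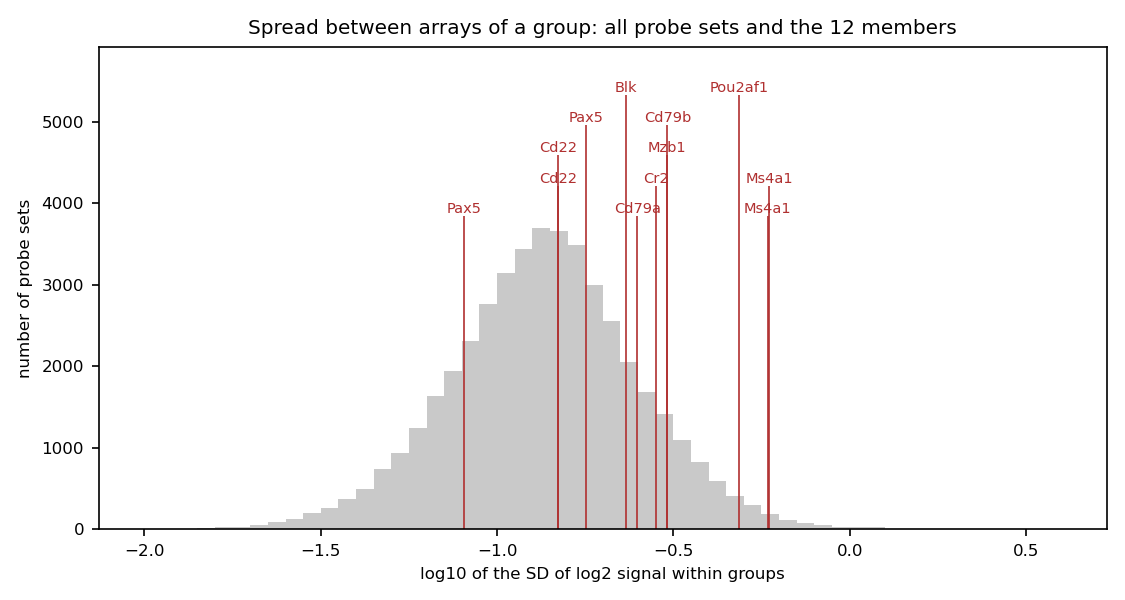
Number of probe sets (vertical axis) by the log10 of their SD of log2 signal within groups (horizontal axis); red lines mark the 12 member probe sets. Of these, 11 lie right of the overall median SD of 0.14, with Ms4a1 and Pou2af1 in the right tail.

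The spread followed a shared order of arrays for some members. The 4 highest arrays of Ms4a1 (HDAd-0 replicates 3 and 5, HDAd-gE3 replicates 3 and 4) were also the 4 highest of Cd79b and Cr2. Cd79a, Pou2af1, Mzb1 and Cd22 1419769_at shared 3 of those 4. The rest of the order could differ. On Cd22 1419769_at, HDAd-0 replicate 4, the lowest array of Ms4a1, lay at 8.15, below only HDAd-0 replicate 5 at 8.28. HDAd-gE3 replicate 4 was the highest array for 6 of the 12 probe sets. These 6 include both Ms4a1 probe sets, which read the same transcript. The share of all probe sets highest on that array was not computed, so 6 of 12 cannot be called unusual. Blk, Cd22 1419768_at and Pax5 had other orders.

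The promoters of Cd79a, Pou2af1 and Cd22 are printed from RefSeq (GRCm38.p6), 5′ to 3′ on the gene's strand. Each runs from 250 bases before to 50 after the annotated start. Cd79a, Pou2af1 and Cd22 1419769_at each shared 3 of the 4 highest arrays of Ms4a1, and Cd22 1419768_at shared 2. The 2 Cd22 probe sets differed in their order, so Cd22 as a gene was not set as a contrast to the others. Promoters of 5 of the 9 genes were in the RefSeq sequences used here: Cr2, Pax5, Cd79a, Cd22 and Pou2af1. Capitals mark matches to ATGCAAAT (the octamer), TGCAAAT (its core, contained in it), CCCNNGGGA (an Ebf1-type motif) or AGGAAGT (an Ets-type motif), searched on both strands and chosen after the sequences had been seen.
Cd79a promoter, chr7:24897247-24897546, plus strand: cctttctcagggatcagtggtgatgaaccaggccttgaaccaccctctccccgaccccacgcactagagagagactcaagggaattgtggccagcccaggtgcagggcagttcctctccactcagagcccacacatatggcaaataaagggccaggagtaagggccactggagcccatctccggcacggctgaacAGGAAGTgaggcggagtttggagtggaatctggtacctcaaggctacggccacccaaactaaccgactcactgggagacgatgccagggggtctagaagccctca
Pou2af1 promoter, chr9:51213440-51213739, plus strand: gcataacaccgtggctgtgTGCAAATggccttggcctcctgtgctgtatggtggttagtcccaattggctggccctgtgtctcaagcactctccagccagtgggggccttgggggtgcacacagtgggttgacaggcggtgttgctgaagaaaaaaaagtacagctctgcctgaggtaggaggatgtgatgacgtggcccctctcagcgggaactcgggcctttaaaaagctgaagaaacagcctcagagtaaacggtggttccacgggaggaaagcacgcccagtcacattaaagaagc
Cd22 promoter, chr7:30878979-30879278, minus strand: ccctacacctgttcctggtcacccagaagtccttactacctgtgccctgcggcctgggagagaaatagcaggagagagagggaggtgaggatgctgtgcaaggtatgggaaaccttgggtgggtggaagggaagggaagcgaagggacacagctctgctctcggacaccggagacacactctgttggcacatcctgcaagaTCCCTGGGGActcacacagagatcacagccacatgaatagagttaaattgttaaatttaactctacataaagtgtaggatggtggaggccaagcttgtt

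Cd79a held AGGAAGT, which 9.35% of 32851 promoters of this length hold. Pou2af1 held TGCAAAT, found in 4.02% of them, and Cd22 held CCCNNGGGA on both strands in overlapping places, a motif found in 6.56%. None of the 5 windows held ATGCAAAT, found in 1.74%, and those of Cr2 and Pax5 held none of the 4 motifs. A match is a string of letters and was not tested as a binding site.

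Igha and Jchain followed another order of arrays than Ms4a1. Igha, the heavy chain of IgA, had a log2 signal (1421653_a_at) of 9.85, 9.89 and 9.91 in PBS, 10.00, 12.95 and 9.06 in HDAd-0, and 10.20, 9.88 and 11.03 in HDAd-gE3. Jchain, which joins IgA and IgM units, had 9.82, 9.69 and 10.85 in PBS, 9.98, 10.98 and 9.46 in HDAd-0, and 9.15, 9.60 and 10.61 in HDAd-gE3. Both were highest on HDAd-0 replicate 4, the array with the lowest Ms4a1 and Cd79b. Of 16 probe sets of Ighm, Igha, Igk, Jchain, Ighg3 and Iglv1 with a mean of at least 6, 11 were highest on that array, 3 on PBS replicate 4 and 2 on HDAd-gE3 replicate 4. The share of all probe sets highest on HDAd-0 replicate 4 was not computed, so 11 of 16 cannot be called unusual. Several of the 16 read the same gene and are not independent. Those of Ighm also disagreed: on PBS replicate 4, 1425247_a_at was lowest (8.01) and the brightest, 1427351_s_at, was highest (12.82). Ighv14-2, the third closest gene to Cd79b by Pearson r (0.948 over 9 arrays), had a log2 signal of 6.39, 6.60 and 6.25 in PBS, 7.09, 6.48 and 7.57 in HDAd-0, and 6.54, 6.91 and 7.80 in HDAd-gE3. Its 4 highest arrays were those of Ms4a1, which Cd79b shared. Ighv14-2 was picked for its likeness to Cd79b, so this order is no separate evidence. Immunoglobulin probe sets can bind transcripts of related segments, so single genes among them are uncertain.

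**Figure D4:**
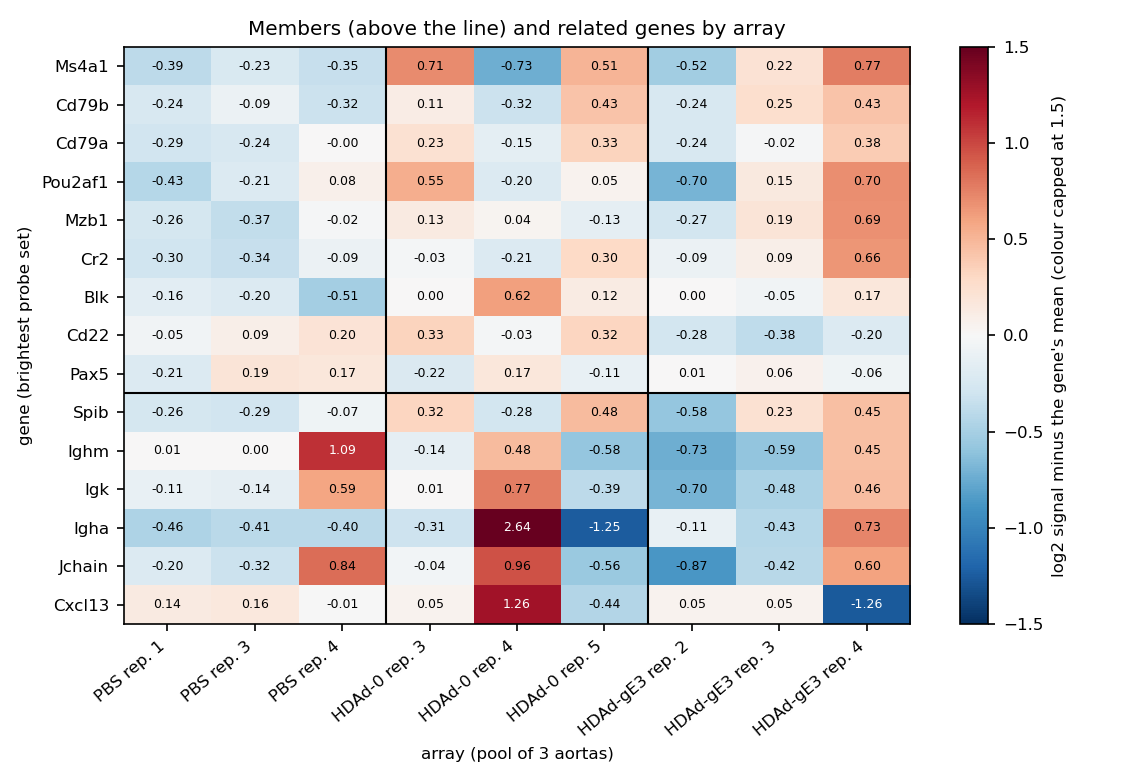
Log2 signal minus the gene's mean over 9 arrays (colour and printed values) for the 9 members (above the line) and 6 related genes (below it), by array. Ms4a1 is at -0.73 on HDAd-0 replicate 4, where Igha is at 2.64; on HDAd-gE3 replicate 4 both are above their means.

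In the wider B cell pathways no gene passed the limma test in any comparison, and the counts below are at an unadjusted p under 0.05, for which the shares over all probe sets are given above. Among 17 measured genes of the antigen receptor and coreceptor list, 1 was higher and 6 lower in HDAd-gE3 than in HDAd-0, and 5 were higher and 0 lower in HDAd-0 than in PBS. The list's median differences were -0.23 and 0.16. In HDAd-gE3 against PBS, 2 were higher and 5 lower, with a median of -0.02. The adaptors Pik3ap1 and Blnk and the phospholipase Plcg2 had the smallest p-values between the vector groups, with differences of -0.49 ± 0.09, -0.28 ± 0.07 and -0.45 ± 0.08 and limma adjusted p-values of 0.173, 0.216 and 0.175. Myeloid cells also express these 3 genes, and 3 of 7 macrophage markers had an unadjusted p under 0.05 in the same direction. Of 5 plasmacytoid dendritic cell markers, 2 were lower in HDAd-gE3 than in HDAd-0 at that level (median -0.31) and 3 were higher in HDAd-0 than in PBS (median 0.29). In HDAd-gE3 against PBS, 0 of these markers were higher and 0 lower at that level (median 0.0068). The part of either cell type in the list's values was not tested.

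Among 13 B lineage transcription factors, 0 were higher and 2 lower at that level in HDAd-gE3 against HDAd-0 (Spi1 and Irf8, both also myeloid factors), and 4 were higher in HDAd-0 than in PBS. In HDAd-gE3 against PBS, 1 was higher and 0 lower. Spib, an Ets factor of B cells and plasmacytoid dendritic cells, was among the 10 genes most like the members. Of 17 survival and homing genes, 5 were lower in HDAd-gE3 than in HDAd-0 and 5 were higher in HDAd-0 than in PBS. Both of these counts use the HDAd-0 arrays. In HDAd-gE3 against PBS, 1 was higher and 1 lower, with a median of -0.02. S1pr1, the receptor by which lymphocytes leave lymphoid tissue, was 0.55 ± 0.06 higher in HDAd-0 than in PBS, with a limma adjusted p of 0.0797. Endothelial cells also express S1pr1, and all 5 endothelial markers were higher in HDAd-0 than in PBS at an unadjusted p under 0.05, with a median of 0.41. The part of endothelium in the S1pr1 value was not tested.

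Tnfrsf13c, the receptor for the B cell survival factor BAFF, was singled out after its values were seen. Its log2 signal was 7.62, 7.40 and 7.03 in PBS, 8.27, 6.93 and 7.74 in HDAd-0, and 6.80, 7.63 and 8.20 in HDAd-gE3. As for Ms4a1, HDAd-0 replicate 4 and HDAd-gE3 replicate 2 were below every PBS array. Cxcl13, the chemokine that draws B cells into follicles, had 10.95, 10.97 and 10.80 in PBS, 10.86, 12.07 and 10.37 in HDAd-0, and 10.86, 10.86 and 9.55 in HDAd-gE3. It was highest on HDAd-0 replicate 4, where Ms4a1 was lowest, and lowest on HDAd-gE3 replicate 4, where Ms4a1 was highest.

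Among 18 genes of antibody secretion and plasma cell control, 0 were higher and 2 lower in HDAd-gE3 than in HDAd-0, and 1 was higher and 4 lower in HDAd-gE3 than in PBS. Irf4, a factor needed for plasma cells and also made by activated T and myeloid cells, had 9.64, 9.71 and 9.67 in PBS, 10.16, 9.91 and 10.56 in HDAd-0, and 10.71, 10.45 and 10.46 in HDAd-gE3. Both vector groups lay above PBS, by 0.53 ± 0.15 and 0.86 ± 0.15, with limma adjusted p-values of 0.251 and 0.136. For Creld2, an endoplasmic reticulum protein induced by stress, the difference of HDAd-0 from PBS was -0.59 ± 0.10, with an adjusted p of 0.127. Of 9 measured immunoglobulin chain genes, 0 were higher and 1 lower in each comparison.

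The genes whose levels ran most like the members were sought among 12835 genes with a mean of at least 6. The members' score was the mean of 7 member genes over that level, each centred on its own mean, and it ran from -0.32 on HDAd-gE3 replicate 2 to 0.42 on HDAd-gE3 replicate 4. The 10 closest by Pearson r over 9 arrays were Vkorc1, Fancd2, Fut4, Gpalpp1, Cenph, Ssbp3, Obi1, Esm1, Spib and Tcea1, with r from 0.974 to 0.938. The search set many genes against few arrays and gives no test, and several of these genes scarcely varied (Vkorc1 had an SD within groups of 0.05). For single members, the closest genes were Stk16 for Blk, Ccdc183 for Cd22, Gpalpp1 for Cd79a, Rcan3 for Cd79b, Fads2 for Cr2, Cdk1 for Ms4a1, B4galt2 for Mzb1, Mllt10 for Pax5 and Eif4ebp2 for Pou2af1, with r from 0.874 to 0.988.

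Markers of neutrophils and liver differed between groups as well as between single arrays. The mean of 5 neutrophil markers, centred on each gene's mean, was -0.94 to -0.11 in HDAd-0 and 0.45 to 1.73 in HDAd-gE3. In PBS it was -0.58 to -0.22. All 5 were higher in HDAd-gE3 than in either other group at an unadjusted p under 0.05 (limma), with 0 passing after adjustment. The top value was on HDAd-gE3 replicate 4, the highest array for 6 member probe sets. On HDAd-gE3 replicate 2, where the members' score was lowest at -0.32, the neutrophil mean was 0.45. The lowest neutrophil mean was on HDAd-0 replicate 5, where the score was 0.23. The mean of 4 liver markers was highest on HDAd-0 replicate 5, at 1.86. The mean of 9 measured T cell markers ran from -0.53 on HDAd-gE3 replicate 2 to 0.50 on HDAd-0 replicate 5, both arrays where Ms4a1 was likewise low and high. Its sign also matched that of centred Ms4a1 on replicate 4 of each group. The signs were opposite on PBS replicates 1 and 3, HDAd-0 replicate 3 (-0.14 and 0.71) and HDAd-gE3 replicate 3 (-0.20 and 0.22). The difference of 3′ from 5′ control probe sets, a sign of RNA quality, was highest on HDAd-0 replicate 4 at 1.08 and lay between 0.67 and 0.96 on the others. Their part in the members' values was not tested.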

How the data were processed

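Aortic RNA pools were hybridised to 9 Affymetrix mouse arrays, 3 for each treatment. The deposited values are log2 signals made with RMA by the authors, per the submitters' processing notes, which give no version. The array annotation names 1 gene for 34945 of 45037 probe sets (64 controls left out), several for 932 and none for 9160. Symbols were updated through RefSeq. Nothing was renormalised or filtered. All 9 arrays were fitted with limma 3.58.1 (R 4.3.3; lmFit, eBayes, two-sided), with Benjamini-Hochberg adjustment over all probe sets and a threshold of 0.05. The fit was also run on simulated data with independent noise for each probe set and no effect shared by an array. That run is no check on such effects in these data. p-values measure the spread between pools, and 3 arrays a group limit the precision. The members and lists were chosen with earlier results of these data known. Named genes are all members, the brightest 3 and the 3 with the smallest p of each list and comparison, and the genes most like the members by Pearson r. A selection of these is printed. Alternatives covered scaling, dim probe sets, the choice of probe set, a replicate block, the samples fitted, array weights, the variance prior and leaving out each array.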

Additional observations from a re-analysis of the deposited data

How the results depend on the processing

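Of 591 member differences recomputed under the alternatives, 566 kept their sign, and in 2 of the 25 that did not, the reported difference was above 1 SE. Many of the 591 could not change. Leaving out dim probe sets, keeping the brightest probe set, fitting only the groups compared and changing the variance prior return the same difference. So does leaving out an array of the group not compared. The 566 thus overstate how stable the signs were. In HDAd-gE3 against HDAd-0, leaving out single arrays gave 0 to 1 member calls (Cd22 1419768_at, without HDAd-0 replicate 4) and a member median of -0.27 to 0.26. Differences that changed sign then ranged from -0.27 to 0.0418 for Cd79a, -0.13 to 0.26 for Cd79b, -0.0157 to 0.36 for Cr2, -0.35 to 0.44 for Ms4a1 1423226_at, -0.45 to 0.33 for Ms4a1 1450912_at, -0.0459 to 0.43 for Mzb1, -0.0287 to 0.17 for Pax5 1421765_at and -0.41 to 0.30 for Pou2af1. In HDAd-0 against PBS, Pax5 1454401_at ranged from -0.10 to 0.0031, and in HDAd-gE3 against PBS, Pax5 1421765_at ranged from -0.18 to 0.0214 and Pou2af1 from -0.0863 to 0.61. Between the vector groups, array weights gave -0.10 for Ms4a1 1423226_at, median centring gave -0.0100 for Pax5 1421765_at, and the mean of a gene's probe sets gave 0.0341 for Ms4a1 and 0.0109 for Pax5. That mean gave -0.0684 for Cd22 in HDAd-gE3 against PBS.

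With the replicate block, the same vector comparison gave a member median of 0.25, with 0.14 for Cd79a, 0.51 for Ms4a1 1450912_at and 0.25 for Pou2af1, and it changed no member's call. It gave member medians of 0.17 for HDAd-0 against PBS and 0.49 for HDAd-gE3 against PBS. Numbers 3 and 4 alone recur in all 3 groups, and the labels do not say whether equal numbers share a batch or day. The main fit therefore did not take the numbers as pairs. Same-numbered arrays correlated at 0.01 to 0.13 in their deviations from group means. Arrays with different numbers were not compared in this way, so whether the numbers mark a batch was not tested. With the block, 0 of all probe sets passed in each comparison.

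Counts over all probe sets moved more. In the order HDAd-gE3 against HDAd-0, HDAd-0 against PBS and HDAd-gE3 against PBS, 3, 35 and 74 passed without dim probe sets, 1, 12 and 23 genes with the brightest probe set, 1, 15 and 24 with the mean of probe sets, 0, 25 and 86 with an intensity trend and robust prior, 0, 0 and 12 with only the groups compared, and 0, 3 and 279 with array weights. Leaving out single arrays gave 0 to 402, 0 to 542 and 0 to 12, with both top counts from the fit without HDAd-0 replicate 4, the array with the lowest weight (0.364). The cause was not tested. Without detection calls, it is unknown whether the dim Pax5 and Cr2 signals lie above background.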
